A study of Homo sapiens with 9 samples.

Results

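The regions described here are the EZH2 peaks of LNCaP cells, an established human prostate cancer line, listed once in control cells and once in cells with EZH2 knocked down. They comprise 31760 peaks on chromosomes 1 to 22 and X, of the 335291 peaks and regions in the 6 lists of the series used here. The control list holds 22630 of them and the knockdown list 9130. Control cells were infected with the empty plko.1 vector and the others with shEZH2, a short hairpin RNA against EZH2, and both were fixed 2 to 3 days after infection in 1% paraformaldehyde. The same antibody, EZH2 (CST), was used on both sides, with 1 library per group. No value below can therefore be set against a spread between cultures. No p-value is given, and each 95% interval covers counting error over peaks or tags only. The lists hold no measure of EZH2 RNA or protein, so the degree of knockdown is not known from them.

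Polycomb repressive complex 2 (PRC2) trimethylates histone H3 at lysine 27 (H3K27me3), and EZH2 is its methyltransferase. The mark recruits further Polycomb proteins, and together they keep developmental genes silent, often over broad domains with many binding sites. In prostate cancer EZH2 is frequently raised, and binding at active chromatin, marked by acetylation of the same lysine (H3K27ac), has also been described.

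A peak in these lists is a window of fixed width centred on the highest pile-up of tags. It measures 183 bp in the control list and 151 bp in that of shEZH2. Its signal, the normalised tag count, is the number of tags in the window scaled to 10000000 tags per library. Tags per kb divide that number by the width. Since the narrower window lies on the summit, tags per kb raise the shEZH2 value relative to control for a profile of the same shape, and tags per window lower it. The log2 of the width ratio is 0.28. Signal below is per kb unless tags per window are named. Plain tag counts, of single peaks or summed over peaks, are per window and not corrected for the width. One tag is worth 0.75 normalised tags (4.1 per kb) in control and 0.689 (4.56 per kb) in shEZH2. The libraries held 13331155 and 14514395 tags. A control peak needed 9 tags and a shEZH2 peak 10, which is 6.75 and 6.89 normalised tags per window but 36.9 and 45.6 per kb.

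The knockdown list was the shorter one, with 0.403 shEZH2 peaks per control peak (95% interval 0.394 to 0.413). A like ratio was present before the caller compared each peak with its surroundings. On all sequences there were 37649 putative control peaks and 15373 putative shEZH2 peaks (ratio 0.408). The local filter, which asks for 4-fold more tags than the surrounding 10 kb, then removed 38.6% and 37.8% of them. The share of all tags inside listed peaks was 3.62% in control and 1.74% in shEZH2, per the file headers.

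Signal per listed peak did not mirror the numbers. The median peak held 55.3 tags per kb in control (interval 53.3 to 57.4) and 63.9 in shEZH2 (63.9 to 63.9). At the same minimum of 80 tags per kb, 5317 control and 2839 shEZH2 peaks were listed, a ratio of 0.534 (0.510 to 0.559). At 15 tags per window it was 0.344 (0.326 to 0.363). At 150 tags per kb the ratio was 0.428, and at 500 it was 0.944, with 162 control and 153 shEZH2 peaks. The shEZH2 list was thus shorter at low and middle signal and of nearly equal length among the strongest peaks.

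The strongest peaks of both lists lay beside long stretches with no listed region. On each chromosome the longest such stretch over all 6 lists was found, and peaks within 2 Mb of it were set apart. It was 3.00 to 21.0 Mb long, and on chromosomes 13, 14, 15, 21 and 22 it began at the first base. All 10 strongest peaks of each list lay within 2 Mb of one. Those 10 peaks held 5.34% of the tags in listed control peaks and 12.6% of those in shEZH2.

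Near these stretches the shEZH2 list was not lower in signal. Control had 1240 peaks there and shEZH2 had 853, a ratio of 0.688 (0.630 to 0.751), while their summed tags stood at a ratio of 1.05. This sequence held 15.9% of the listed tags in control and 36.1% in shEZH2. At 150 tags per kb or more there were 224 control and 296 shEZH2 peaks, a ratio of 1.32 (1.11 to 1.58). At 15 tags per window the ratio there was 0.892 (0.778 to 1.02), so whether it lay above 1 depended on the width correction.

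Away from these stretches the shortfall was larger and depended on signal. Control had 21390 peaks and shEZH2 had 8277, a ratio of 0.387 (0.377 to 0.397), and the listed tags stood at a ratio of 0.351. The ratio of peak numbers was 0.487 at 80 tags per kb and 0.355 at 120. It was 0.256 (0.220 to 0.298) at 200 tags per kb, where 847 control peaks stood beside 217. It was 0.36 at 300 and 0.478 (0.306 to 0.734) at 500, with 69 and 33 peaks. At 1000 tags per kb or more there were 10 control and 11 shEZH2 peaks. Among the minimum values tried, the deficit was deepest at 200. Values without the flanking sequence are called "away" values below. Only the longest stretch of each chromosome was set apart, so peaks beside a shorter one count as away.

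**Figure D1:**
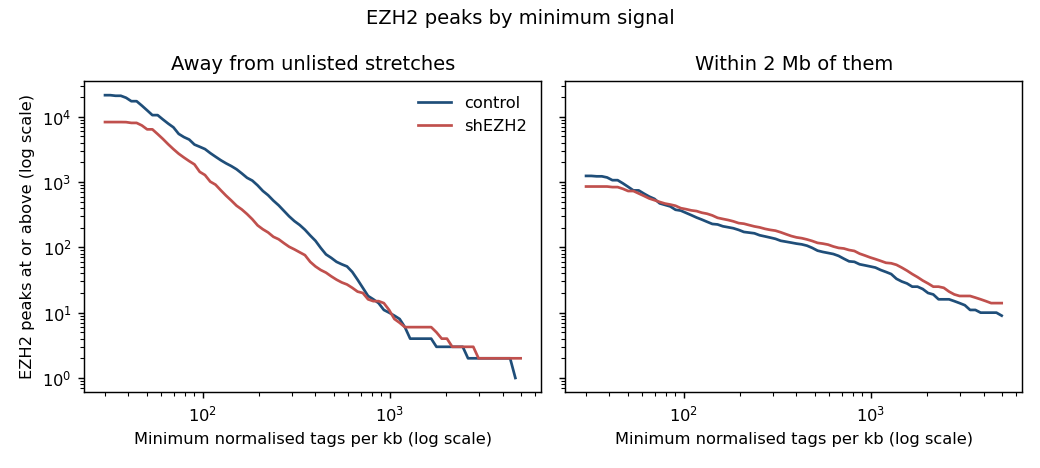
Number of EZH2 peaks (vertical axis, log scale) at or above a minimum signal in normalised tags per kb (horizontal axis, log scale) for control and shEZH2, away from the longest unlisted stretches (left) and within 2 Mb of them (right). On the left the lists stand furthest apart near 200 tags per kb (847 and 217 peaks) and meet near 1000, and on the right they cross, with 446 control and 468 shEZH2 peaks at 80.

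Every one of the 23 chromosomes held fewer peaks in shEZH2. Chromosome 13 had the lowest ratio, with 442 control and 139 shEZH2 peaks (0.314, interval 0.258 to 0.381). Chromosome X followed at 0.317 (0.239 to 0.416), with 224 and 71 peaks, and chromosome 3 at 0.361, with 1075 and 388. The highest ratios were on chromosome 7 (0.466, 0.425 to 0.510, with 1516 and 706 peaks), chromosome 9 (0.455) and chromosome 21 (0.447). On 20 of the 23 chromosomes the interval held the ratio of the whole list, with chromosomes 7 and 9 above it and 13 below.

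The order of chromosomes was partly set by peaks near the unlisted stretches. On chromosome 21 these were 20.2% of control and 45.3% of shEZH2 peaks, and its away ratio was 0.306 (0.238 to 0.391), among the lowest instead of the highest. Chromosome X went to 0.248 (0.178 to 0.339) away, the lowest of all, while chromosomes 7 and 9 stayed highest at 0.451 and 0.435. With peaks of at least 80 tags per kb, all 23 intervals held the 0.534 of the whole list at that minimum. Peak density in control differed far more between chromosomes than the ratio did, from 1.44 peaks per Mb on X to 19.6 on chromosome 19.

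**Figure D2:**
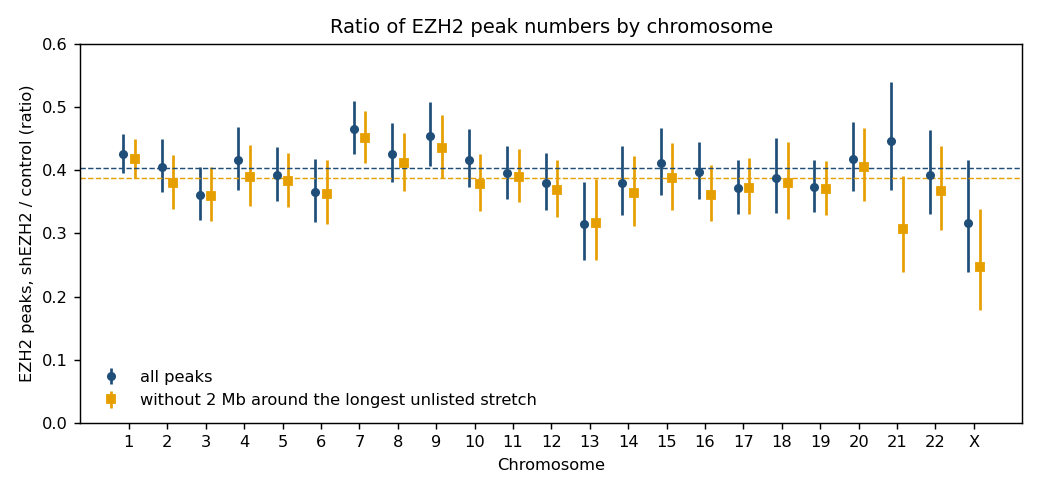
Ratio of EZH2 peak numbers, shEZH2 over control, for each chromosome (horizontal axis) with 95% exact binomial intervals, for all peaks (circles) and without 2 Mb around the longest unlisted stretch (squares). Dashed lines mark the ratio of the whole list, 0.403 and 0.387, and among the squares chromosomes X (0.248) and 21 (0.306) lie lowest and 7 and 9 highest.

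Within chromosomes, the outermost megabase kept more peaks. Within 1 Mb of either end of the listed sequence there were 1095 control and 533 shEZH2 peaks, a ratio of 0.487 (0.438 to 0.540). The ratio was 0.430 between 1 and 2 Mb and 0.371 (0.344 to 0.399) between 2 and 5 Mb. It was 0.366 between 5 and 10 Mb, and beyond 40 Mb the away value was 0.398. With peaks of at least 80 tags per kb the outermost value was 0.568 (0.468 to 0.688) and that between 2 and 5 Mb was 0.437 (0.375 to 0.509), so the outermost bin was again the highest but its interval overlapped the other.

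In bins of 5 Mb with at least 50 control peaks away from the unlisted stretches, all 122 ratios were below 1, with a median of 0.381. The lowest was 0.194 (0.0949 to 0.363) on chromosome 11 between 70 and 75 Mb, where 62 control peaks stood beside 12. The first 5 Mb of chromosome 10 had 87 and 17 peaks (0.195). At the other extreme, chromosome 9 between 65 and 70 Mb had 60 and 46 away peaks (0.767, 0.511 to 1.14). Its unlisted stretch ends at base 65576221, so only peaks more than 2 Mb beyond that are counted in this bin. Chromosome 5 between 140 and 145 Mb had 92 and 56 (0.609). Intervals of 2 bins lay below the genome value and of 5 bins above it.

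At the scale of 100 kb, control peaks occupied 10866 windows and shEZH2 peaks 5087, of which 4757 held both. Thus 43.8% (42.8 to 44.7) of control windows still had an EZH2 peak in shEZH2, and 93.5% (92.8 to 94.2) of shEZH2 windows had one in control. For the 9130 control peaks of highest score, a list as long as that of shEZH2, 70.1% of windows had one. The 330 windows with peaks in shEZH2 alone held 356 peaks, at most 4 in a window. Peak number was lower in shEZH2 in 8647 windows, equal in 1741 and higher in 808.

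Windows dense in control peaks more often had a peak left. A window with more control peaks has more chances to keep 1, and the share expected from number alone was not computed. A shEZH2 peak was present in 26.1% of windows with 1 control peak, 48.6% with 2, 68.2% with 3 or 4, 86.0% with 5 or 6, and 94.6% with 7 to 9. All 68 windows with 10 or more control peaks held at least 1, for which the exact interval starts at 94.7%. The number of peaks per window also held up better: away from the unlisted stretches the ratio was 0.310 for windows with 1 control peak and 0.450 for those with 10 or more. Keeping a peak was not keeping them all, since in 1 of those 56 away windows the number was not lower. Of the 879 windows with at least 5 control peaks, 546 had at most 0.5 times as many in shEZH2 (62.1%). This share was 66.2% (62.8 to 69.5) away from the unlisted stretches and 26.4% (17.7 to 36.7) near them. In the other direction, 9 of the 247 windows with at least 5 shEZH2 peaks had at least 2 times as many as control (3.64%).

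**Figure D3:**
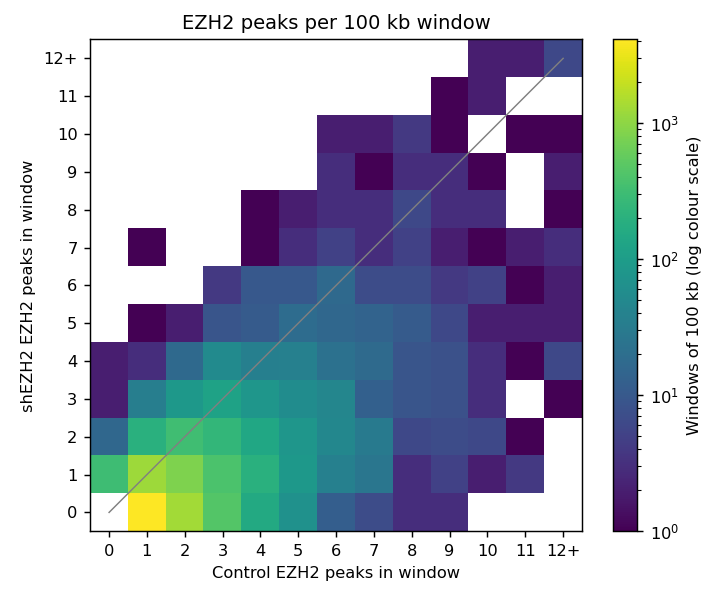
Windows of 100 kb by the number of EZH2 peaks in control (horizontal axis) and shEZH2 (vertical axis), with the number of windows as colour on a log scale, and the line of equal numbers. Most windows lie below the line (8647 against 808 above it), and every window with 10 or more control peaks has at least 1 in shEZH2.

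The windows with the most control peaks differed in what remained. Chromosome 5 between 140.5 and 140.6 Mb was the densest away window, with 17 control and 16 shEZH2 peaks, but the summed signal was 386 normalised tags in control and 193 in shEZH2. The neighbouring window from 140.2 to 140.3 Mb had 16 and 12 peaks and 243 and 112 tags. On chromosome 2 between 133.0 and 133.1 Mb, 13 and 14 peaks held 619 and 540 tags. This was the highest ratio of summed tags among the 10 densest away windows, at 0.871. Such sums are not divided by the width, which lowers the shEZH2 side. The third window on chromosome 5 among the 10, from 140.7 to 140.8 Mb, had 14 and 5 peaks. Together the 10 windows held 149 control and 78 shEZH2 peaks.

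Several of the largest deficits lay close together. Of the 10 away windows with the largest drop in number, 4 were on chromosome 18 between 74 and 77 Mb. Over 10 kb of H3K27me3 regions of control cells covered 8 of the 10, beside 9 of the 10 away windows with the most control peaks. A large drop needs many control peaks to begin with. Among all away windows with a control peak, 479 had 10 to 20 kb of H3K27me3 and 307 more than 20 kb. Beside them, 851 had 5 to 10 kb, 1542 had 2 to 5 kb, 3357 had up to 2 kb and 3935 had none. Between 74.1 and 74.2 Mb the numbers were 15 and 3, with 225 and 30.9 tags. The windows from 75.6 and from 75.9 Mb each had 11 control peaks and 1 in shEZH2. Over the whole interval from 74 to 77 Mb there were 179 and 65 peaks, a ratio of 0.363 (0.269 to 0.485), whose interval holds the away ratio of all windows. The window from 76.4 to 76.5 Mb, in the same interval, had 12 and 10. Chromosome 16 between 86.7 and 86.8 Mb had 15 and 4 peaks, and chromosome 1 between 5.5 and 5.6 Mb had 11 and 1. Chromosome 7 between 27.2 and 27.3 Mb also had 11 and 1, with 107 and 9.65 tags, and stood apart from the rest of the 10 by carrying more H3K27ac (4.35 kb) than H3K27me3 (0.569 kb) in control.

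Few away windows held more peaks in shEZH2. Chromosome 21 between 14.3 and 14.4 Mb had 1 control peak with 30.8 tags and 7 shEZH2 peaks with 195 tags. A single shEZH2 peak held 93 of those 195. The stretch set apart on chromosome 21 ends at base 9426158, and whether this window lies beside a shorter one was not examined. Chromosome 19 between 8.8 and 8.9 Mb had 1 and 5 peaks, with 12 and 83.4 tags, in a window with 45.7 kb of H3K27me3. Chromosome 15 between 64.4 and 64.5 Mb had 0 and 4. Near the unlisted stretches the densest windows had similar numbers in both lists, such as 16 and 16 on chromosome 10 between 39.1 and 39.2 Mb and 15 and 17 on chromosome 4 between 49.1 and 49.2 Mb. Their summed tags were 560 and 596 in the first and 2700 and 3798 in the second.

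The histone marks of control cells, which the peak lists did not use, graded the windows. Unlike the ratios by control number, the ratios by mark also count shEZH2 peaks in windows without a control peak. Shares that kept a peak are of windows with a control peak. Away windows with no H3K27me3 region had a ratio of 0.265 (0.250 to 0.280), and 29.3% kept a peak. Windows with more than 20 kb of H3K27me3 had a ratio of 0.555, and 92.2% kept a peak. These windows also began with more peaks, 5.88 per window against 1.52, so cover and peak density moved together and their parts were not separated. Signal differed too, with medians of 69.9 tags per kb for away control peaks on H3K27me3 alone, 53.3 on H3K27ac alone and 45.1 on neither. A shEZH2 peak needed 45.6, and ratios by mark at equal signal were not computed. For H3K27ac the ratio was highest without the mark, at 0.426 (0.409 to 0.445). It was 0.311 (0.279 to 0.346) with 10 to 20 kb of it and 0.371 (0.306 to 0.448) with more than 20 kb, whose interval overlaps the first. The share of windows that kept a peak was higher with much H3K27ac, as with H3K27me3, at 42.9% without the mark, 48.5% with 10 to 20 kb and 63.9% with more than 20 kb. The lowest ratio was in windows with neither mark, with 378 control peaks in 353 windows and 49 shEZH2 peaks (0.130, 0.0942 to 0.175). Of those 353 windows, 5.67% kept a peak.

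Peaks of both lists came in close groups. The nearest other peak of the same list lay within 10 kb for 46.1% (45.4 to 46.7) of control and 48.7% (47.7 to 49.8) of shEZH2 peaks, a difference of 2.67 points (1.46 to 3.88). Without the flanks of the unlisted stretches it was 1.14 points (-0.127 to 2.40), an interval that includes 0. At a longer distance the order was the other way: 86.8% of control but 75.9% of shEZH2 peaks had a neighbour within 100 kb. Against the 9130 control peaks of highest score, a list of equal length, shEZH2 peaks more often had a neighbour within 1, 10 and 100 kb. These shares are cumulative and include the closest distances, treated below. The shares within 1 kb were 30.7% in shEZH2 and 26.5% in that control list, within 10 kb 48.7% and 44.5%, and within 100 kb 75.9% and 73.5%.

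The closest distances carried a limit of the caller. The set minimum between peaks was 366 bp in control and 302 bp in shEZH2, and 6.82% of control but 13.8% of shEZH2 peaks had a neighbour within 0.5 kb. In the control list of equal length it was 7.65%. Between 0.7 and 1 kb, 623 shEZH2 peaks stood beside 787 of that control list, and between 1 and 2 kb 564 beside 633. From 2 to 10 kb each 1 kb bin held slightly more in shEZH2, such as 173 and 158 between 2 and 3 kb. The part of the set minimum in the cumulative shares was not tested. The medians of the nearest distance were 12.3 kb in control (11.8 to 12.7) and 11.2 kb in shEZH2 (10.1 to 12.1), and 15.9 kb (14.4 to 17.6) in the control list of equal length. Nearest distances in control thinned to 407 peaks between 3 and 4 kb and then numbered 582 between 6 and 7 kb. In shEZH2 the same bins held 163 and 140. The local filter looks across 10 kb, and its part in this dip was not tested.

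**Figure D4:**
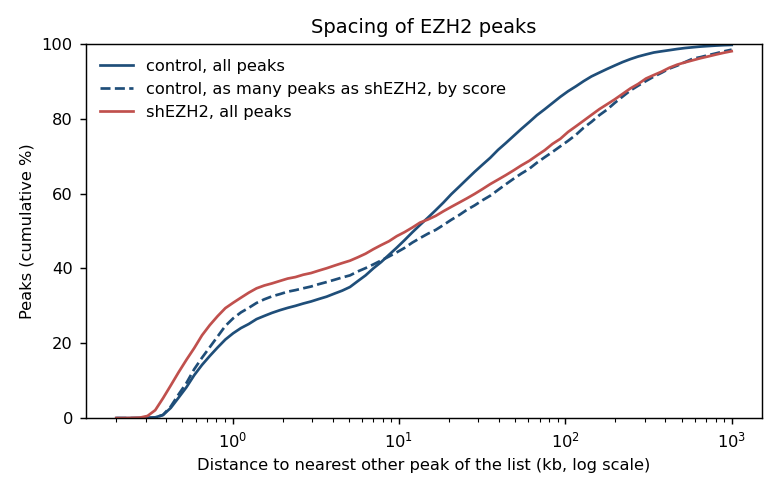
Cumulative share of EZH2 peaks (vertical axis, percent) whose nearest other peak of the same list lies within a distance in kb (horizontal axis, log scale), for all control peaks, for the 9130 control peaks of highest score, and for all shEZH2 peaks. The shEZH2 curve starts higher (30.7% within 1 kb against 22.6% and 26.5%) and ends below the full control list (75.9% against 86.8% within 100 kb).

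Joining neighbours within 10 kb gave 16441 groups in control and 6402 in shEZH2, of which 12204 and 4680 were single peaks. Groups of 5 or more peaks numbered 170 and 85 and held 13.2% and 24.0% of the listed tags. These shares include the flanks of the unlisted stretches. Of 948 control peaks in groups of 5 to 9, 747 lay away from them, and of 107 in groups of 10 or more, 60 did. In shEZH2 it was 272 of 429 and 26 of 136. Tag shares of groups without the flanks were not computed. Control peaks in larger groups were listed again more often. An overlapping shEZH2 peak was found for 17.3% of away single peaks, 24.96% of those in pairs, 29.8% in groups of 3 or 4 and 28.2% (25.04 to 31.6) in groups of 5 to 9. The median signal of those peaks also differed, at 53.3, 57.4, 65.6 and 73.8 tags per kb, in the same order.

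The largest control groups all had peaks left in shEZH2. The group with the most peaks away from the unlisted stretches, 16 over 60.8 kb at chr5:140202775-140263564, held 243 tags, and the same span held 11 shEZH2 peaks with 103 tags. The span of the 13 control peaks at chr5:140751756-140821501 held 4, with 134 and 33.1 tags. That of the 10 control peaks at chr19:38955132-39006917 held 2, with 114 and 22.1 tags. Near an unlisted stretch, the span of 10 control peaks at chr11:51570040-51593202 held 10 shEZH2 peaks, with 2103 and 2155 tags.

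Peak by peak, 5104 control peaks (22.6%, interval 22.01 to 23.1) overlapped a shEZH2 peak by at least 1 bp, and 5105 shEZH2 peaks (55.9%, 54.9 to 56.9) overlapped a control peak. Of the 9130 control peaks of highest score, 44.9% overlapped one. With windows this narrow, nearby sites need not overlap, and the share of shEZH2 peaks with a control peak within 1 kb was 79.8%. Within 10 kb it was 89.5% and within 100 kb 98.2%. In the other direction, 32.9% of control peaks had a shEZH2 peak within 1 kb and 41.2% within 10 kb. A control peak was listed again the more often the stronger it was, from 5.87% under 50 tags per kb to 46.0% at 80 to 120, 67.7% at 120 to 200 and 88.9% (83.0 to 93.3) at 500 or more. Peaks with no partner within 10 kb were weak, with medians of 49.2 tags per kb for 13316 control peaks and 54.8 for 956 shEZH2 peaks.

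The overlapping peaks formed 5105 pairs, whose centres were a median of 43 bp apart. Per kb, 3714 of them (72.8%) were lower in shEZH2, and the median log2 ratio was -0.40 (-0.43 to -0.39). Of the pairs, 748 were at least 2-fold lower (14.7%) and 55 at least 2-fold higher (1.08%). Per window the median was -0.68. When each library was scaled to its tags in listed peaks, the direction turned, to 0.66. Tags of peaks without a partner enter that scaling too. A pair enters only if both windows passed the caller, so a weak control peak can show only a small loss.

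The change at shared peaks depended on their strength and place. Away from the unlisted stretches the median log2 ratio was 0.04 for pairs with a mean of 50 to 60 tags per kb, where peaks lie close to both thresholds. It was -0.67 (-0.70 to -0.62) at 80 to 120, -0.82 (-0.85 to -0.79) at 120 to 200 and -0.81 (-0.88 to -0.76) at 200 to 500. For the 42 away pairs above 500 it was -0.28 (-0.72 to 0.18), an interval that includes 0. Near the unlisted stretches the 482 pairs had a median of 0.21 (0.15 to 0.26), and the 90 above 500 tags per kb had 0.40 (0.35 to 0.45). Per window these 90 pairs had a median of 0.12, and all 482 had -0.06.

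**Figure D5:**
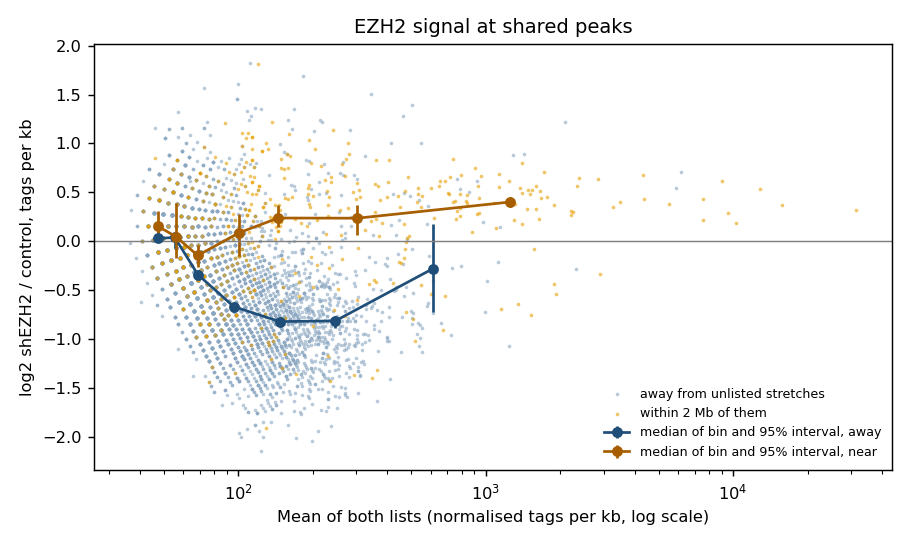
Log2 ratio of EZH2 signal, shEZH2 over control in tags per kb (vertical axis), against the mean signal of both lists in tags per kb (horizontal axis, log scale) for 5105 pairs of overlapping peaks, 4623 away from and 482 within 2 Mb of the longest unlisted stretches. Large points are medians of signal bins with 95% intervals, and the away medians lie near -0.82 between 120 and 500 while those near the stretches lie at 0.40 above 500.

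The signal ratio did not differ between peaks of larger groups and single ones beyond the intervals. Among away pairs with a mean of at least 80 tags per kb, the median log2 ratio was -0.74 (-0.79 to -0.70) for 802 control peaks that stood alone. It was -0.76 (-0.80 to -0.72) for 820 in pairs, -0.74 for 592 in groups of 3 or 4 and -0.69 (-0.76 to -0.61) for 146 in groups of 5 to 9. These intervals overlap.

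The lowest ratios among away pairs with a mean of at least 150 tags per kb were near a log2 of -2. The peak at chr18:2847037-2847219 held 58.5 tags per window in control and 11.7 in shEZH2, which is 320 and 77.5 per kb, a log2 ratio of -2.04 (-2.90 to -1.27). At chr7:54614495-54614677 the values were 50.3 and 10.3 tags (-2.01), and at chr19:15090269-15090451 they were 60.8 and 13.1 (-1.94). At chr17:37761987-37762169 they were 68.3 and 15.2 (-1.89). The authors' fold over the surrounding 10 kb at the first of these was 19.1 in control and 7.2 in shEZH2.

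Other strong peaks were higher in shEZH2. The strongest away pair, at chr3:196625637-196625819, held 854 tags in control and 1153 in shEZH2 (log2 ratio 0.71 per kb, 0.60 to 0.82). At chr2:89875225-89875407 they were 875 and 1053 (0.54), and at chr22:18879930-18880112 they were 231 and 444 (1.22, 1.02 to 1.42). By contrast chr1:148854469-148854651 had 308 and 121 (-1.07, -1.33 to -0.81), and chr7:157944061-157944243 had 465 and 315 (-0.29). The highest ratio among away pairs with a mean of at least 150 tags per kb was at chrX:77359504-77359686, with 15.8 and 42 tags (1.69, 0.95 to 2.48). The clonal fold, from the authors' caller, measures how far tags pile up on the same positions. In control and shEZH2 it was 1.8 and 1.37 at the chromosome 2 pair and 1.59 and 1.46 at that on chromosome 22. At the chromosome 3 pair it was 1.32 and 1.03, and at that on chromosome X 0.86 and 0.98. Its 99th percentile among away control peaks was 1.36. Beside an unlisted stretch, the strongest pair of all, chr1:121485111-121485293, held 5119 and 5264 tags (0.32, 0.27 to 0.37).

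Some of the strong peaks listed on one side only stood barely above the local filter. The strongest away control peak with no shEZH2 peak within 10 kb, at chr10:135479659-135479841, held 133 tags and was 4.63-fold above its surroundings in the authors' table, where 4-fold is the least allowed. The peaks at chr18:44556215-44556397 (87.8 tags, 5.23-fold) and chr9:133538983-133539165 (73.5 tags, 4.08-fold) were similar. Among shEZH2 peaks without a control peak within 10 kb, the strongest away peak was chr21:14353246-14353396 with 93 tags and a fold of 91.7, far above that filter. Its clonal fold was 1.91, where the 99th percentile of away shEZH2 peaks was 1.34. The next in strength had folds of 4.08 to 6.37. Near the unlisted stretches, the 5 strongest such shEZH2 peaks had folds of 4 to 4.99, while 4 of the 5 such control peaks had 9.92 to 22.7 and the other 4.4. Whether the local filter removed their counterparts from the other list was not tested.

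The focus ratio is the share of a peak's tags that lie on the side of the centre expected from their strand, and it is higher for sharp, point-like peaks. Its median was 0.727 (0.727 to 0.731) in control and 0.714 (0.708 to 0.714) in shEZH2, and it was lower in shEZH2 on 20 of the 23 chromosomes. At shared peaks the median of the paired difference was -0.005 (-0.008 to 0), so the lists differed more than the same sites did. Near the unlisted stretches the order was opposite, at 0.737 (0.730 to 0.750) and 0.765 (0.750 to 0.778). There 9.68% of control and 15.6% of shEZH2 peaks exceeded 0.9, against 4.55% and 3.67% away. Over all sequence the median also differed with signal. Under 50 tags per kb it was 0.733 in control and 0.714 in shEZH2, and at 200 to 500 it was 0.685 and 0.719. The part of signal in the difference between the lists was not tested.

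The focus ratio differed with chromatin state in both lists. Away control peaks on H3K27me3 regions alone had a median of 0.706 and those on H3K27ac alone 0.731, and the shEZH2 medians on the same regions were 0.684 and 0.737. Peaks on neither mark had 0.765 and 0.760. These peaks also differed in signal, with medians of 69.9 tags per kb on H3K27me3, 53.3 on H3K27ac and 45.1 on neither in control.

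The change at shared peaks also differed with the focus ratio, and differently away from and near the unlisted stretches. The log2 ratios and the numbers of lower pairs given here are per kb. Per window each log2 ratio is lower by that of the widths, 0.28. Whether the width correction acts more strongly on sharp peaks was not tested. Among away pairs with a mean of at least 80 tags per kb, those with a control focus ratio up to 0.6 had a median log2 ratio of -0.67 (-0.73 to -0.59), and those between 0.7 and 0.8 had -0.79 (-0.84 to -0.75). The 86 pairs above 0.9 had -0.20 (-0.47 to 0.22), and 47 of them were lower in shEZH2, beside 719 of 785 between 0.7 and 0.8. Their median fold over the surrounding 10 kb was 23.1 in control, against 11.1. Near the unlisted stretches the 72 pairs above 0.9 had a median of 0.48 (0.35 to 0.57), and 5 were lower in shEZH2. Their clonal fold, a measure from the authors' caller of how far tags pile up on the same positions, had a median of 1.32 in control and 1.38 in shEZH2, against 0.99 and 0.96 for the away pairs between 0.7 and 0.8, and its part in the difference was not tested.

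The part of the window width in the differences of focus ratio between the lists was not tested. The ratio of the same site in both lists agreed best where the centres did. Across the 5105 pairs Spearman's rho of the focus ratio was 0.403, and it was 0.592 for the 1455 pairs with centres at most 20 bp apart and 0.165 for the 942 pairs more than 100 bp apart. Signal per kb had a rho of 0.697 and the authors' local fold 0.724 across the same pairs. These are descriptions over sites of a single library pair.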

How the data were processed

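Chromatin immunoprecipitation with sequencing for EZH2 was done in LNCaP cells, 1 library per group, and samples were grouped by their titles. Chromatin was sheared to 200 to 500 bp, per the labels' protocols. The submitters' processing notes name BWA 0.6.1, HOMER 4.1 and the hg19 build. Per the file headers, the authors ran the HOMER caller on single libraries with no input, at a false discovery rate of 0.001. The deposited signal is the tag count of each window, scaled by the authors to 10000000 tags. The deposited score, the caller's peak score, was used only to cut lists to equal length. The deposited fold, a ratio to the surrounding 10 kb, and the clonal ratio are quoted as the authors' values. The focus ratio is a deposited fraction, and the deposited p-value against the surroundings was not used. The calling threshold applies to the score, and 2.21% of control and 2.85% of shEZH2 peaks list fewer tags than it.

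Intervals are 95% exact binomial (Clopper-Pearson) for shares and for ratios of peak numbers, Newcombe for differences of shares and order-statistic for medians. They cover counting error only, and neighbouring peaks are not independent. Overlap meant at least 1 bp, and windows were 100 kb from the first base. H3K27me3 and H3K27ac cover came from the control lists. Spacing, overlap and interval code was tested on simulated data. Scripts ran under Python 3.11.15 with scipy 1.17.1, pandas 2.3.3 and numpy 2.4.6, and figures were drawn with matplotlib 3.10.9.

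The peaks, lists and tests were chosen with earlier results of these data known. Named were the 3 highest and 3 lowest chromosomes, the 10 windows with the most peaks of each list or the largest fall, the 5 with the largest rise, the 10 strongest shared peaks, the 5 highest and 5 lowest ratios at a mean of at least 150 tags per kb, and the 5 strongest peaks with no partner within 10 kb, each away from and near the unlisted stretches. Not every one of these is printed. Windows by mark and by control number, groups of peaks, bins of 5 Mb, distance from chromosome ends and classes of focus ratio were added after the data were seen, and their regions were picked by extreme value. Genes are not named, since no hg19 annotation was used here, and gene lists, sequence and 3 samples of other EZH2 or tagged-EZH2 precipitations were not analysed here.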

Additional observations from a re-analysis of the deposited data

Results flagged for a closer look

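EZH2 peaks were also listed on sequences outside chromosomes 1 to 22 and X, which the comparisons above leave out. Control had 430 of them and shEZH2 had 363, a ratio of 0.844 (95% exact binomial interval 0.732 to 0.973) against 0.403 on the chromosomes. They were 1.86% of the control list and 3.82% of the shEZH2 list. A shEZH2 peak overlapped 226 of the 430 control ones (52.6%), and median signal was 80.1 tags per kb in control and 114 in shEZH2.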

How the results depend on the processing

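With 1 library per group no library could be left out, and no paired analysis was possible because each group has a single sample. Of 32 alternatives over 8 results, 7 stayed within the interval of the reported value. The ratio of peak numbers, 0.403, was 0.387 without 2 Mb around the longest unlisted stretches, 0.384 at 10 or more tags per window, 0.382 at a local fold of at least 8, and 0.564 at or above the higher calling threshold per kb, a setting chosen after seeing the data. The ratio at 80 tags per kb, 0.534, was 0.453 at 120, 0.344 at 15 tags per window and 0.487 without the flanks. The share of control peaks listed again, 22.6%, was 15.8% with 50% of the peak covered, 32.9% within 1 kb, 44.9% for lists of equal length and 21.6% without the flanks. The log2 ratio at shared peaks, -0.40, was -0.68 per window, -0.70 at a mean of at least 150 tags per kb and -0.45 without the flanks. It turned to 0.66 when each library was scaled to its tags in listed peaks. Those were 3.62% of tags in control and 1.74% in shEZH2. This scaling removes a loss common to all peaks, and it also counts the tags of peaks listed on 1 side only. The turned sign therefore cannot be read as a gain of signal at shared peaks. Windows kept, 43.8%, were 38.4% at 50 kb, 76.9% at 1 Mb and 70.1% for lists of equal length. The spacing difference, 2.67 points within 10 kb, was 8.15 within 1 kb, 4.22 for lists of equal length and 1.14 (-0.127 to 2.40) without the flanks, and it turned to -10.9 within 100 kb. The focus ratio difference, -0.013, was -0.009 (-0.017 to 0) at 80 tags per kb and -0.005 (-0.008 to 0) for shared pairs. The highest over the lowest chromosome ratio, 1.48, was 1.91 at 80 tags per kb. At the low end, depth limits the comparison: a peak at the threshold rests on 9 or 10 tags.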

Other observations

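Of the 9 windows of 100 kb with at least 5 shEZH2 peaks and at least 2 times as many as control, 3 lay near the unlisted stretches. In 3 of the 6 away from them the summed tags were lower in shEZH2 although peaks were more numerous. On chromosome 6 between 117.5 and 117.6 Mb, 2 control peaks held 113 tags and 5 shEZH2 peaks held 75.7. On chromosome 14 between 33.4 and 33.5 Mb, 3 and 6 peaks held 168 and 108 tags, and on chromosome 18 between 35.1 and 35.2 Mb, 3 and 6 peaks held 74.3 and 59.2. A higher number of listed peaks in a window thus did not always come with more listed tags. These sums are of tags per window and are not corrected for the narrower shEZH2 windows.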
